A study of Homo sapiens with 2 samples.

Results

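The heat shock factor genes and the genes of the proteins that bind these factors were examined in HEK293T cells after heat shock. HEK293T is a line of human embryonic kidney cells with the large T antigen of SV40. The 6 genes were taken by name, HSF1, HSF2, HSF4, HSF5, HSBP1 and HSF2BP, and each was matched by symbol to 1 of the 57736 Ensembl identifiers in the tables. The cells, labelled wild type, were by their labels heated for 20 min at 43 °C and kept for 6 h at 37 °C. The study's text gives a longer time at 43 °C for its heat shock. Cells were lysed as 2 replicates for poly(A)+ RNA-Seq with 50 bp reads. Both libraries belonged to the same group, and untreated cells are not analysed here, so a level after recovery was measured and a change with heat shock was not.

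Heat shock factors are transcription factors that bind DNA as trimers and switch on chaperone genes when proteins unfold. HSF1 is held as an inactive monomer by chaperones in unstressed cells, trimerises upon heating, and is turned off again during recovery as chaperones accumulate and the factor is acetylated. Much of this control acts on the protein, so the level of an HSF mRNA does not report the activity of the factor. HSF2 acts in development and can form mixed trimers with HSF1, HSF4 is best known from the lens, and HSF5 from the germ line of the testis. HSBP1 is a small coiled-coil protein that binds the trimerisation region of HSF1, and HSF2BP, found by its binding to HSF2, works in meiotic recombination.

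Replicate 1 held 22529828 expected counts (reads per gene as estimated by the quantifier) and replicate 2 held 26890199. A TPM (a level per transcript length, scaled to the same total in each library) of at least 1 in both libraries was taken as detection, and 15188 genes, or 26.3% of those listed, met it. In these bulk samples, fewer cells with an mRNA and less of it per cell cannot be told apart. The labelled line was checked with its markers. All 6 matched markers of HEK293 cells (NEFM, INA, KRT8, KRT18, VIM and PAX2) were detected, at mean levels from 7.35 to 647 TPM. Of the blood, hepatocyte, endothelial and germ cell markers none was detected, and of the fibroblast markers COL1A1 was, at 22.5 TPM. The 4 germ cell markers, which bear on HSF5 and HSF2BP, summed to 0.30 TPM in replicate 1 and 1.09 in replicate 2.

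The DNA that heat shock factors such as HSF1 read consists of alternating, inverted GAA and TTC units spaced by any 2 bases. It is shown here in promoters of 4 well-known target genes. These were picked from the target promoters that held at least 3 units. The windows come from RefSeq promoters on GRCh38.p14, from 250 bases before to 50 bases after a start, and were found by searching the letters alone. Capitals mark the units, and each line runs 5′ to 3′ on the strand of the gene.
HSPA8, 3 units, chr11:123062349-123062371, minus strand: agcttGAAagTTCcaGAAcgctg
HSP90AA1, 3 units, chr14:102087115-102087137, minus strand: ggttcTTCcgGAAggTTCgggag
HSPD1, 4 units, chr2:197500063-197500090, minus strand: gcattTTCtgGAAagTTCtgGAAccgag
CHORDC1, 5 units, chr11:90223082-90223114, minus strand: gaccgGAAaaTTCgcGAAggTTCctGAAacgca
HSPA8 encodes the constitutive HSP70, HSP90AA1 the inducible HSP90, HSPD1 the mitochondrial HSP60 and CHORDC1 a cochaperone of HSP90.

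The searched letters were GAANNTTC or TTCNNGAA for a pair of units, and GAANNTTCNNGAA or TTCNNGAANNTTC for 3 units. The patterns of each size cover both strands, and every match to 3 units also holds a match to the shorter form. Of 35116 promoters of all genes, 13.5% held the shorter form and 0.490% held 3 units. Of 35 promoters of 22 listed HSF target genes, 16 (45.7%) held the shorter form and 8 (22.9%) held 3 units. The table gave 6 promoters of the factor and binding-protein genes, namely 2 of HSF2, 2 of HSF4, 1 of HSF5 and 1 of HSBP1, and 0 held either form. HSF1 and HSF2BP had no entry. A match of letters is a description of the window and not a measured binding site.

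HSF1 (ENSG00000185122), the main stress-responsive factor, had the highest mean level among the 6 genes. It was measured at 118.3 TPM in replicate 1, with deposited 95% credibility bounds of 111 to 127, and at 117.55 TPM in replicate 2, with bounds of 110 to 125. The mean was 118 ± 0.53 TPM (SD, n = 2), which placed HSF1 at rank 1180 of the 57736 genes and above 92.2% of the detected genes. The levels in the libraries differed by less than their bounds. HSF1 lies on chromosome 8 of GRCh37, from 145515273 to 145538383 on the plus strand. At its 3′ end it overlaps by 137 bases the gene for the triglyceride-synthesis enzyme DGAT1 on the opposite strand, which stood at 51.57 and 43.48 TPM. The long noncoding gene ENSG00000254690, also on the opposite strand, overlaps HSF1 by 131 bases and held 21.19 and 32.52 counts.

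**Figure D1:**
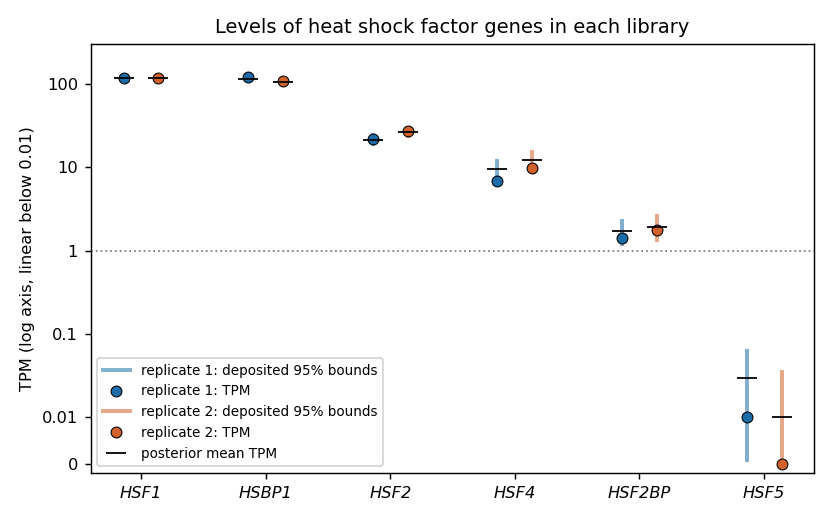
Levels of the 6 genes in TPM (log axis, linear below 0.01) in replicate 1 (blue) and replicate 2 (orange). Circles are the deposited TPM, vertical lines the deposited 95% credibility bounds, black dashes the posterior mean TPM, and the dotted line a TPM of 1. HSF1 and HSBP1 stand together near 118 and 114 TPM, HSF2, HSF4 and HSF2BP follow in steps, and HSF5 stands at 0.01 TPM or below in both libraries.

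HSF2 (ENSG00000025156) was the second heat shock factor by level. It reached 21.99 TPM (bounds 18.9 to 24.0) in replicate 1 and 26.88 TPM (bounds 23.4 to 28.8) in replicate 2, a mean of 24.4 ± 3.46 TPM. Replicate 2 was the higher, while the bounds overlapped narrowly. HSF2 thus stood above 64.2% of the detected genes. The gene lies on chromosome 6, from 122720696 to 122754264 on the plus strand. Of the 50-base sequences in its transcripts, 5.71% also occur in a processed pseudogene on chromosome 12, ENSG00000257350, to which 0 counts were assigned in either library.

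HSF2 is made as a pair of coding isoforms that differ by an exon, which a gene-level value adds together. This exon is shown because it is the part that tells the isoforms apart in the reference. It lies at chr6:122749048-122749101 (GRCh37, plus strand), is exon 11 of 13 in transcript ENST00000368455, and is absent from transcript ENST00000452194. Its 54 bases make 18 codons in frame. Capitals mark the exon and lower case the 8 coding bases on either side.
HSF2 alternative exon: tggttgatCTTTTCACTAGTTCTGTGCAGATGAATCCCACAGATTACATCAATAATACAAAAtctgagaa
The annotated lengths of the transcripts with and without the exon were 2596 and 2643 bases, and a short coding transcript had 642 bases. The length that the quantifier gave HSF2, weighted by the estimated share of each transcript, was 2076 bases in replicate 1 and 1991 bases in replicate 2. Both lay below the annotated lengths of the long transcripts. The share of each isoform was not analysed here.

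HSF4 (ENSG00000102878), the factor best known from lens fibre cells, was detected at a lower level and with the widest bounds relative to its level among the heat shock factors detected. Its TPM was 6.76 in replicate 1 and 9.89 in replicate 2, a mean of 8.32 ± 2.21 TPM. The deposited bounds were 7.05 to 11.9 in replicate 1 and 9.56 to 15.2 in replicate 2, so that the TPM of replicate 1 fell below its own lower bound. The posterior mean TPM, on which such bounds rest, was 9.39 and 12.26. A TPM outside its own bounds was seen in 8.14% of genes tested in replicate 1 and 6.48% in replicate 2, hence HSF4 was not alone in this.

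The counts of HSF4 were few and shared with its neighbours. Its expected counts were 79.83 and 138.18, with posterior SDs of 6.38 and 8.59 counts. It lies on chromosome 16 from 67197709 to 67203848 on the plus strand, where it overlaps, on the same strand, the F-box gene FBXL8 by 765 bases and the protein-coding gene ENSG00000265690 by 2010 bases. FBXL8 stood at 12.2 and 12.88 TPM. ENSG00000265690 held 95.98 and 134.85 counts with posterior SDs of 9.83 and 13.49. Of the 50-base sequences in HSF4 transcripts, 30.6% also occur in these genes, 25.6% in ENSG00000265690 and 9.09% in FBXL8. The table listed 28 HSF4 transcripts. Of the 26 found in the annotation, 8 were coding, 11 were retained-intron and 7 were nonsense-mediated decay transcripts. The level of HSF4 is therefore uncertain to the extent that reads were divided among these genes.

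HSF5 (ENSG00000176160), a factor of spermatocytes, was not detected. It had 1 count in replicate 1, or 0.01 TPM with bounds up to 0.0627, and 0 counts in replicate 2 with bounds up to 0.0347. The count of 0 in replicate 2 allowed up to 3 counts, that is, a CPM (counts scaled to the total of a library) of 0.112. This limit holds counting error alone. No ratio between the libraries was formed for HSF5. None of the 50-base sequences of its single transcript occurs in another gene. The gene lies on chromosome 17 from 56497528 to 56565769 on the minus strand, where SETP3, a processed pseudogene within it, held 1.63 and 2.64 counts and the microRNA gene AC023992.1 held 0.

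HSBP1 (ENSG00000230989), which encodes the negative regulator that binds HSF1 trimers, stood at 119.26 TPM (bounds 108 to 122) in replicate 1 and at 107.91 TPM (bounds 99.2 to 111) in replicate 2. The mean was 114 ± 8.03 TPM, above 91.9% of the detected genes. Replicate 1 was the higher. In replicate 1 HSBP1 exceeded HSF1 and in replicate 2 HSF1 exceeded HSBP1. HSBP1 lies on chromosome 16 from 83841583 to 83853342 on the plus strand. With genes of the tables it shared 0.314% of its 50-base sequences. A further gene of the annotation used, the long noncoding ENSG00000288849, shared 14.3% of them and is not analysed here.

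HSF2BP (ENSG00000160207), which brings recombinases to meiotic breaks, was detected just above the limit. Its TPM was 1.42 (bounds 1.20 to 2.27) in replicate 1 and 1.74 (bounds 1.33 to 2.58) in replicate 2, a mean of 1.58 ± 0.226 TPM, which exceeded only 4.82% of the detected genes. The values rested on 48 and 51 counts. HSF2BP spans 44949066 to 45079369 of chromosome 21 on the minus strand. RPL31P1 and H2BC12L, both on the opposite strand within it, had 0 counts.

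The order of the mean levels was HSF1, HSBP1, HSF2, HSF4, HSF2BP and HSF5. The first neighbours in this order, HSF1 and HSBP1, did not differ beyond their spread, with a ratio of 1.04 and an order that turned between the libraries. Every other pair of neighbours kept its order in both libraries, with no overlap of the library values or of the bounds. HSBP1 was 4.65 times HSF2, HSF2 was 2.94 times HSF4 and HSF4 was 5.27 times HSF2BP, as ratios of mean TPM. With 2 values against 2, an exact permutation test cannot give a p below 0.333, so these steps carry no test. By CPM, which is not per length, HSBP1 at 129 ± 8.64 stood above HSF1 at 114 ± 9.53. The sizes of the lower steps also depend on the scale. HSF2 was at 38.2 ± 2.99 CPM, HSF4 at 4.34 ± 1.13 and HSF2BP at 2.01 ± 0.165, and the ratio of HSF2 to HSF4 by counts was 10.2 in replicate 1 and 7.84 in replicate 2.

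The ratio of HSF1 to HSF2 on the TPM scale was 5.38 in replicate 1 and 4.37 in replicate 2. By counts, which are not per length, it was 3.34 in replicate 1 and 2.65 in replicate 2. HSF1 accounted for 44.2% and 44.5% of the TPM summed over the 6 genes. The TPM ratio of HSF1 to its regulator HSBP1 was 0.992 in replicate 1 and 1.09 in replicate 2, close to equal on this scale alone. By counts it was 0.892 in replicate 1 and 0.871 in replicate 2. Such gene-level values add coding and other transcripts together. The TPM ratio of HSF2 to HSF2BP was 15.5 in replicate 1 and 15.4 in replicate 2, whereas by counts it was 16.9 and 21.3. These are ratios of mRNA and give nothing on the amounts of protein.

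The next question was how far each gene differed between the replicates. An exact two-sided binomial test was run on the rounded counts of every gene whose counts summed to at least 10, with edgeR TMM scaling and Benjamini-Hochberg adjustment. It compares 2 libraries and not conditions, and its p-values hold counting error only. Of 19714 genes tested, 43.1% were called at an adjusted p of 0.05. Higher values were called in replicate 2 for 20.9% of genes and in replicate 1 for 22.2%. Of the 6 genes, 5 were tested and 3 were called, a count that cannot be set apart from this background. HSF1 and HSBP1 were called higher in replicate 1 and HSF4 higher in replicate 2.

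HSF1 had 2714 counts in replicate 1 and 2876 in replicate 2. After scaling for depth, its log2 ratio of replicate 2 over replicate 1 was -0.22 (95% exact interval -0.30 to -0.14, adjusted p = 7.5e-08 in the exact binomial test). On the TPM scale the log2 ratio was -0.01, and the weighted length of HSF1 was 1306 bases in replicate 1 and 1227 bases in replicate 2. HSBP1, with 3042 and 3302 counts, had a log2 ratio of -0.19 (interval -0.26 to -0.11, adjusted p = 1.7e-06 in the same exact test). The direction of HSBP1 was the same by TPM, at -0.14. The call of HSF1 was lost when the GC trend described below was removed, while that of HSBP1 was not.

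HSF4 had a log2 ratio of 0.49 (interval 0.07 to 0.90, adjusted p = 0.0409 by the exact binomial test). The call of HSF4 was lost with the posterior mean counts, which gave 0.41 and an adjusted p of 0.0948, and also when no minimum was set on the summed count. When HSF4 was added up with FBXL8 and ENSG00000265690, an alternative chosen after seeing the data, the sums were 379 and 520 counts and the log2 ratio was 0.15. HSF2, with 813 and 1084 counts, gave 0.11 (interval -0.02 to 0.24, adjusted p = 0.189 by the exact test). HSF2BP gave -0.21 with a wide interval of -0.81 to 0.38 (adjusted p = 0.631 by the exact test). With this scaling neither HSF2 nor HSF2BP passed the threshold, whereas HSF2 did with library totals (log2 ratio 0.16, adjusted p = 0.0433 by the exact test) and with the GC trend removed, as given below.

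**Figure D2:**
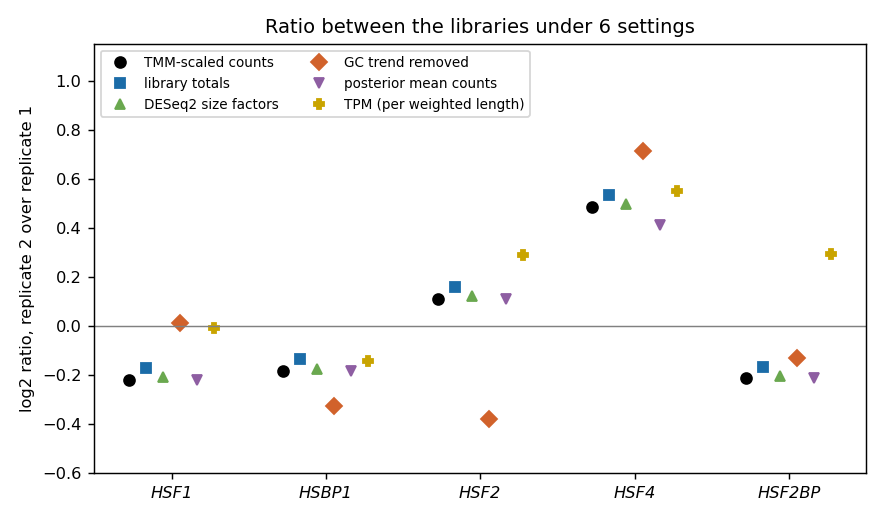
Log2 ratio of replicate 2 over replicate 1 for the 5 genes tested (y axis), under TMM scaling, library totals, DESeq2 size factors, removal of the GC trend, posterior mean counts and TPM. HSF4 lies above 0 and HSBP1 below 0 under each of these settings, whereas HSF1, HSF2 and HSF2BP each cross 0 under at least 1 of them.

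The deposited bounds gave another view of the same difference. The TPM bounds of the libraries did not overlap for 22.2% of the genes tested. Among the 6 genes this was seen for 0, and with the FPKM bounds for 1, HSBP1. The share of all genes with separate FPKM bounds is not given here, so that count of 1 has no background. An edgeR exact test that assumed a biological coefficient of variation of 0.1 called 0 of the 5 genes, with 0 at an unadjusted p under 0.05, while it called 7.24% of all genes. The call of 3 genes therefore rested on counting error as the only error.

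GC content moved with the ratio between the libraries across all genes. Over 13544 genes whose counts summed to at least 100, the log2 ratio had a Pearson r of -0.637 with the GC content of the reference transcripts, a description across genes that share both libraries. HSF1, with a GC content of 63.9%, lay near the trend at its GC content, which was -0.23 relative to the median of these genes, and its ratio with the trend removed was 0.01 (adjusted p = 0.891 by the exact test). HSF2, at 40.0% GC, had a ratio of 0.11 where the trend, taken in the same way, was 0.49. With the trend removed HSF2 was at -0.38 (adjusted p = 2.4e-07 by the exact test) and so was called higher in replicate 1. HSBP1, at 44.5% GC, moved further down to -0.33 (adjusted p = 9.8e-18 by the exact test). The GC content of a gene was taken over all its annotated transcripts, without weighting by their levels. For HSBP1 these included a transcript of 8649 bases, while its weighted lengths were 1447 and 1522 bases. Its GC content may thus differ from that of the mRNA sequenced, which was not tested.

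HSF4 lay high among genes of like base composition. Among 604 genes within 1 percentage point of its GC content of 63.1%, 98.7% had a lower ratio, and with the trend removed its log2 ratio was 0.71 (adjusted p = 0.00229 by the exact test). The corresponding share was 62.4% of 511 genes for HSF1, 14.3% of 1164 genes for HSF2, 9.92% of 1139 genes for HSBP1 and 30.1% of 883 genes for HSF2BP. The part of the division of reads with the overlapping genes in the value of HSF4 was not tested.

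**Figure D3:**
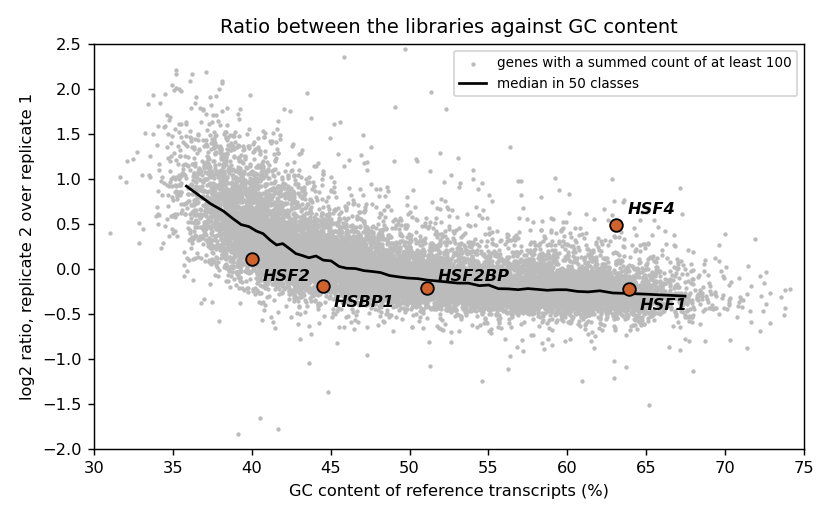
Log2 ratio of replicate 2 over replicate 1 (y axis) against GC content of the reference transcripts in percent (x axis). Grey points are genes whose counts summed to at least 100, of which 8 lie beyond the axes, the line is the median in 50 classes of GC content, and orange points are the 5 genes tested. HSF1 and HSF2BP lie near the line, HSF2 and HSBP1 below it and HSF4 above it.

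The weighted lengths showed how the estimated mix of transcripts varied between the replicates. Over 12488 genes that had more than 1 transcript and counts summing to at least 100, the median absolute log2 ratio of length was 0.05 and the 90th percentile 0.22. HSF2BP went from 1899 bases in replicate 1 to 1459 bases in replicate 2, a log2 ratio of -0.38. Its summed count of 99 was below the count minimum of those genes, and its change exceeded that of 97.0% of them. Among the 15432 genes with counts summing to at least 10, a set that includes HSF2BP, its change exceeded that of 92.6%. The 90th percentile in that set was 0.31. The annotated transcripts of HSF2BP had 1900 and 989 bases. TPM is divided by length and is also scaled between libraries otherwise than the TMM-scaled counts. The ratio of HSF2BP was 0.29 on the TPM scale and -0.21 on the scale of counts. The part of the length in this difference was not tested.

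For the other genes the lengths were closer. The absolute change of HSF1 exceeded 67.3% of the 12488 genes, that of HSBP1 61.0%, that of HSF2 54.8% and that of HSF4 50.6%. HSF1 had 13 transcripts, of which 3 were coding, 7 retained-intron and 3 nonsense-mediated decay, from 364 to 3451 bases. HSF4, at 696 and 721 bases, had the shortest weighted length of the 6 genes, beside annotated transcripts of 227 to 2289 bases. HSBP1, at 1447 and 1522 bases, lay far below its longest annotated transcript of 8649 bases. HSF5 had 1 transcript and thus no mix.

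**Figure D4:**
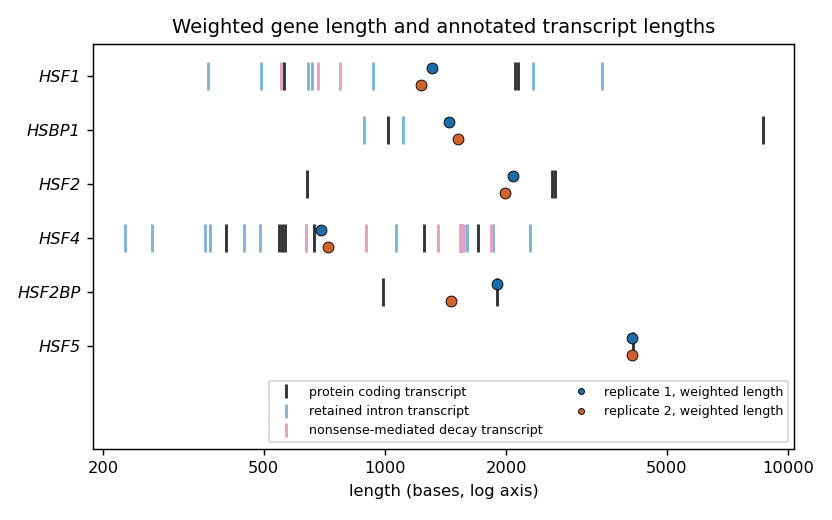
Weighted length of each gene in replicate 1 (blue) and replicate 2 (orange) in bases (log axis), with vertical ticks at the lengths of annotated coding (black), retained-intron (light blue) and nonsense-mediated decay (pink) transcripts. HSF2BP shows the widest gap between the libraries, 1899 against 1459 bases.

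Relatives of these genes were also examined. HSBP1L1, a paralog of HSBP1, was detected at 14.58 and 15.14 TPM, and HSBP1 exceeded it by 8.18 and 7.13 times on the TPM scale. HSBP1L1 was not called between the libraries (adjusted p = 1 by the exact test, log2 ratio -0.01). HSFX1, an HSF-like gene of the X chromosome, stood at 0.49 and 0.59 TPM, below detection. Its 17.2 and 23.38 counts had posterior SDs of 4.97 and 6.94, and 100% of its 50-base sequences occur in its copy HSFX2, so its level is uncertain. The pseudogenes HSBP1P1 and HSBP1P2 had 0 counts. HSFX2, HSFX3 and HSFX4 were not matched.

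Role lists of genes that act on or with the factors, of target genes, and of lens and meiotic genes were read next. The role lists held 88 genes, counted once each, of which 75 were detected. Of the 78 tested, the binomial test called 64 (82.1%) between the libraries, against 43.1% of all genes tested. Of the 13840 genes whose counts summed to at least 100 it called 58.4%. Over all genes the share called was thus larger at the higher count minimum. The part of the counts in the share of the role lists was not tested. After removal of the GC trend, the binomial test called 49 of the listed genes and 28.5% of the 19048 genes tested in that setting. By list, 11 of 12 chaperones, 18 of 22 targets and 8 of 11 ubiquitin and SUMO genes were then called. So were 7 of 10 cofactors, 6 of 12 kinases, 4 of 7 acetylation, 1 of 5 lens and 0 of 5 meiotic genes. The largest ratio of a list, given below, is that by TMM-scaled counts among its genes whose counts summed to at least 100.

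Chaperones that bind HSF1 were detected in 11 of 12 cases. HSPA8 stood at 1220 and 1137 TPM and HSP90AB1, the constitutive HSP90, at 628.88 and 623.23 TPM. PTGES3, the p23 cochaperone, followed at 549.75 and 527.61 TPM, and TCP1, a subunit of the TRiC chaperonin, at 358.27 and 400.02 TPM. HSPA1A was listed at 0.47 and 1.05 TPM beside 345.44 and 376.15 TPM of HSPA1B, its near-identical copy, so that their reads cannot be safely divided. Of the 12 genes tested, 11 were called, 3 higher in replicate 2 and 8 in replicate 1, and the median log2 ratio was -0.13. The largest ratio among those with such counts was that of HSP90AA1, at 247.48 and 408.27 TPM (log2 ratio 0.55, and 0.41 with the GC trend removed), while HSPA1A, with 15.53 and 39.55 counts, was at 1.02.

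Kinases that phosphorylate HSF1 or act upstream of it were detected in 12 of 12 cases, with mean levels from 34.6 to 299 TPM. MAPK3 (ERK1) was the highest at 322.16 and 276.15 TPM, and the mitotic kinase PLK1 followed at 277.39 and 243.54 TPM. CSNK2A1, a catalytic subunit of casein kinase 2, stood at 162.73 and 166.89 TPM and MAP2K2 at 164.59 and 135.18 TPM. Of the 12, 4 were called higher in replicate 2 and 7 higher in replicate 1. After removal of the GC trend 6 of the 12 were called, against 28.5% of all genes tested in that setting. PRKAA1, a catalytic subunit of AMPK, had the largest ratio, with 27.89 and 47.04 TPM (log2 ratio 0.66). With the GC trend removed PRKAA1 was at 0.17, and MAPK8 (JNK1) at -0.27, CSNK2A1 at -0.24 and PLK1 at -0.18 were further from 0.

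Genes of acetylation were detected in 7 of 7 cases. The deacetylase HDAC1 led at 244.32 and 240.21 TPM, and HDAC6 stood at 46.04 and 42.29 TPM. The acetyltransferase CREBBP was at 41.96 and 43.66 TPM and HDAC7 at 34.35 and 32.42 TPM. HDAC9 had the largest ratio, with 1.04 and 1.45 TPM (log2 ratio 0.50, and 0.27 with the GC trend removed), and was not called (adjusted p = 0.116 by the exact test). Of the 7 genes 5 were called, 2 higher in replicate 2 and 3 in replicate 1.

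Genes of ubiquitin and SUMO attachment were detected in 11 of 11 cases, and 10 were called, 4 higher in replicate 2 and 6 in replicate 1. SUMO2 was the highest at 755.61 and 821.64 TPM. STUB1, the CHIP ubiquitin ligase, stood at 173.76 and 137.02 TPM. The ubiquitin ligase NEDD4 had the largest ratio, with 5.04 and 10.39 TPM (log2 ratio 1.22, and 0.52 with the GC trend removed).

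Cofactors at HSF1-bound promoters were detected in 10 of 10 cases. EEF1A1, a translation factor also linked to HSF1, led at 3554 and 3419 TPM. SSBP1, a single-stranded DNA-binding protein of mitochondria, was at 248.72 and 259.04 TPM and SMARCA4, the ATPase of the SWI/SNF complex, at 211.4 and 190.95 TPM. TPR, a protein of the nuclear pore, had both a high level and the largest ratio, with 112.92 and 346.65 TPM (log2 ratio 1.51, and 1.09 with the GC trend removed). Of the 10 genes 9 were called, 3 higher in replicate 2 and 6 in replicate 1.

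Among 24 target genes of the factors, 21 were detected. The polyubiquitin gene UBB was the highest at 3137 and 2672 TPM, although its counts had posterior SDs of 202.77 and 201.65. HSPA8 and HSP90AB1, given above, also belong to this list. Of the 22 tested 18 were called, 8 higher in replicate 2 and 10 in replicate 1, with a median log2 ratio of 0.00. CHORDC1, whose promoter holds 5 units, had the largest ratio, with 24.57 and 59.80 TPM (log2 ratio 1.16). With the GC trend removed CHORDC1 was at 0.35, below HSP90AA1. No rise of these targets after heat shock was measured, since control cells are not analysed here.

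Lens and meiotic genes were examined beside HSF4 and HSF2BP. Of 9 lens genes 4 were detected. VIM, the vimentin gene of many cultured cells, stood at 683.67 and 610.7 TPM and the eye-field factor PAX6 at 73.0 and 79.26 TPM. The crystallin gene CRYBB2 was at 4.99 and 3.97 TPM and had the largest ratio (log2 ratio -0.44, adjusted p = 0.133 by the exact test). BFSP1, a beaded filament gene, was at 1.63 and 1.45 TPM. Only VIM of the 5 tested was called. The lens-defining crystallin gene CRYAA had 2 and 0 counts, and BFSP2 had 0 in both libraries.

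Of 10 meiotic genes 4 were detected. The meiotic recombinase gene DMC1 stood at 16.27 and 19.72 TPM. PALB2 was at 10.97 and 15 TPM, and BRME1, a partner of HSF2BP, at 10.22 and 9.33 TPM (log2 ratio -0.38, adjusted p = 0.0101 by the exact test). MEIOB, SPATA22 and SYCP1 had 0 counts. Of the 5 tested 4 were called, 3 higher in replicate 2 and 1 higher in replicate 1. SYCP3, not detected and with 20.04 and 79.26 counts, had a log2 ratio of 1.66 (adjusted p = 2.2e-06 by the exact test). With the GC trend removed SYCP3 was at 0.80 (adjusted p = 0.0717 by the exact test). After removal of the GC trend 0 of the 5 were called, against 28.5% of all genes tested in that setting. The difference of these 5 genes from that share was not tested. HSF2BP, at 1.58 TPM, was thus present with a higher level of its partner BRME1, while several meiotic genes were at 0.

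**Figure D5:**
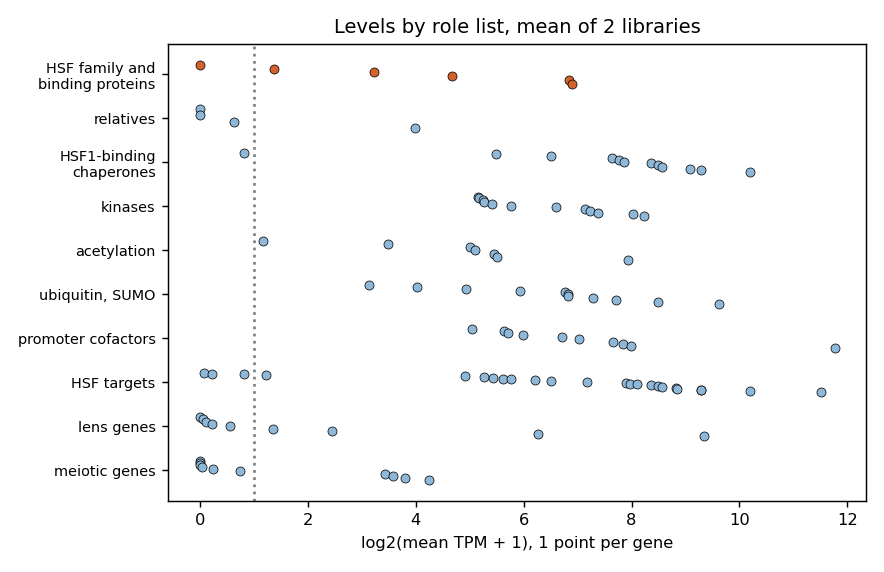
Level as log2(mean TPM + 1) over the 2 libraries (x axis), with 1 point per gene and the dotted line at a TPM of 1, for the 6 genes (orange) and each role list (blue). The kinase, acetylation, ubiquitin and cofactor genes all lie right of the line, whereas several relatives, lens genes and meiotic genes lie at or near 0.

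Genes with the most similar levels were found by the distance of log2(TPM + 1) over the 2 libraries. For HSF1 these were INCENP at 118.57 and 116.56 TPM, AHCYL1 at 119.54 and 117.41 TPM and SPARC at 118.88 and 116.35 TPM, with distances of 0.01, 0.02 and 0.02. For HSF2 they were POLA1 at 22.07 and 26.84 TPM, ASXL2 at 21.7 and 26.79 TPM and WWTR1 at 21.76 and 26.54 TPM, with distances of 0.01, 0.02 and 0.02. With 2 libraries such likeness describes the level alone.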

How the data were processed

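Poly(A)+ RNA of 2 replicates of 1 group was sequenced with 50 bp reads. The molecule is given as genomic DNA in the labels, although their protocol describes RNA. The submitters' processing notes name Trimmomatic 0.36, STAR 2.6.1c and RSEM 1.3.1 with hg19/GRCh37.p13, while the study's methods name featureCounts. The tables carry RSEM's columns. Whether counting used strand is not given in these sources, which leaves overlapping genes on either strand uncertain.

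The authors deposited expected counts, in which multi-mapped reads were shared among genes. Their TPM, as deposited, is scaled to transcript length and library total. Their FPKM, as deposited, is scaled to effective length and reads. Posterior means, SDs, bounds and lengths were also deposited. A pooled table was not printed here.

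Names, positions, GC content (96.1% of identifiers) and 50-base sequences came from a GENCODE annotation of GRCh37 of another release than the tables. NEFL, LHX1 and PECAM1 were not matched by identifier. TMM factors (edgeR 4.0.16) were taken from genes whose counts summed to at least 10. Ratios had a pseudocount of 0.5 count. GC trends were medians in 50 classes of genes whose counts summed to at least 100, interpolated and, for removal, centred on the median of those genes. Intervals were exact at 95%. DESeq2 1.42.0, R 4.3.3, Python 3.11.15 and SciPy 1.17.1 were used, and the test was tested on simulated data. edgeR's quasi-likelihood test needs replicates of each arm and was not used. Nothing says that the replicates came from separate cultures, so the spread may be technical.

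The genes, the lists and the tests were chosen with earlier results of these data known. Named by rule were the 6 genes, relatives and overlapping genes, the 4 highest genes and the largest ratio (summed count of at least 100) of each list, and the 3 nearest genes to HSF1 and HSF2. Some genes that this rule names are not reported here. MAPK8, HSPA1A, HSPA1B, HSPD1, COL1A1, CRYAA, BFSP2, MEIOB, SPATA22, SYCP1 and SYCP3 were singled out after their values were seen.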

Additional observations from a re-analysis of the deposited data

How the results depend on the processing

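Ratios were recomputed with library totals, DESeq2 size factors, other count minimums and pseudocounts, posterior mean counts, TPM, an assumed variation and the GC trend removed, and, chosen after seeing the data, with TMM over all listed genes. No paired analysis was possible because both libraries belong to 1 group, and leaving out a replicate removes the contrast between them, so it was applied to levels and their order alone. With CPM, 4 of the 6 positions in the order were kept, with HSBP1 first, and leaving out a replicate kept 4 to 6. The edgeR exact test with an assumed coefficient of variation of 0.1 adds variation. It called 0 of the 5 genes tested against 3, and 7.24% of all genes tested against 43.1%. FPKM bounds separated 1 gene, HSBP1, against 0 with the TPM bounds, and the share of all genes with separate FPKM bounds is not given here. Removal of the GC trend turned HSF1 to 0.013 and HSF2 to -0.38, and TPM turned HSF2BP to 0.29. HSF2 was called with library totals (log2 ratio 0.16, adjusted p = 0.0433 by the exact test). Across settings the ratio of HSF4 ranged from 0.15 to 0.71 and that of HSBP1 from -0.33 to -0.14. Library totals moved the median ratio of all genes tested from 0.00 to 0.05. The share of calls that were higher in replicate 2 was 48.5%, 38.9% with the GC trend removed and 92.4% with the assumed variation. The causes were not tested. Depth limits HSF5 and HSF2BP most.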
